A study of Mus musculus with 40 samples.

Results

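The duodenum of mice fed folpet at 6000 ppm in the diet was compared with that of control mice. All 7 libraries labelled with folpet at 6000 ppm and all 5 labelled as control were taken, which gave 12 of the 40 libraries of the series. Every mouse was a male wildtype B6C3F1 animal, a hybrid laboratory strain, and exposure lasted 28 days; the labels give no age and do not say what the control diet or water held. Where another exposed group was needed for comparison, the 7 libraries of captan at 6000 ppm and the 7 of folpet at 16000 ppm, both given in the diet to mice of the same sex, strain and genotype for the same time, were used. The fit behind the tests of single probes held all 40 libraries. Those of captan at 12000 ppm and hexavalent chromium (CrVI) at 180 ppm, 7 each, thus also entered its filter, scaling and estimate of spread. RNA came from formalin-fixed, paraffin-embedded sections scraped off slides into lysis buffer, and a chosen set of genes was read by TempO-Seq, an assay in which neighbouring probes on a transcript are joined, amplified and counted. Since no label ties a library to a mouse of its own, p-values reflect library-to-library spread alone, and part of that spread may be technical.

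Folpet is a fungicide whose trichloromethylthio side chain breaks down in contact with thiols, and the gut lining is its first site of contact after feeding. The transcription factor NRF2 is held in the cytoplasm by KEAP1; when reactive chemicals modify cysteines of KEAP1, NRF2 enters the nucleus and turns on genes that make glutathione, attach it to chemicals, and supply NADPH. The nuclear receptors CAR (gene Nr1i3) and PXR (gene Nr1i2) respond to foreign chemicals and turn on enzymes and transporters of drug metabolism in gut and liver.

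Counts were deposited for 3045 probes that name 2756 gene symbols. The total per library was 3120439 to 6788378 counts for folpet and 2121824 to 6220801 counts for control, and probes with a count above 0 numbered 2013 to 2335 in the folpet libraries and 1460 to 2322 in the control libraries. Neither measure differed beyond the spread between libraries (2-sided exact permutation tests, p = 0.490 and 0.144, adjusted p over the 2 measures 0.490 and 0.288). Acinar genes of the pancreas, a gland beside the duodenum whose acinar cells secrete digestive enzymes, took 1.80% to 40.2% of all counts in the folpet libraries with a median of 16.3%, and 41.3%, 39.2%, 21.2%, 65.5% and 77.6% in the control libraries. The means were 19.6 ± 13.5% in folpet (SD, n = 7) and 49.0 ± 22.5% in control (SD, n = 5; 2-sided exact permutation test, p = 0.0202, adjusted over 3 comparisons 0.0606). All 19 acinar probes had a negative log2 fold change, with a median of -1.83. Of these, Zg16 alone passed the test, at -1.40 ± 0.44 log2 (edgeR adjusted p = 0.0483), and not without folpet replicate 1, 3, 4, 5, 6 or 7 or control replicate 2, 4 or 5, with adjusted p up to 0.244 in edgeR. Zg16 and Reg1 of that list are also made by intestinal cells. Control replicate 5 had the most acinar counts, the fewest counts and the fewest probes above 0, and control replicate 4 also exceeded 50% acinar counts. The enterocyte markers were present: their 8 probes summed to 52341 to 105979 CPM in folpet and 20448 to 66377 CPM in control, while the defining markers Alpi, Vil1, Muc2 and Lgr5 have no probe in the table. CPM here are counts scaled to a common library size by TMM, a scaling that evens out the bulk of the probes between libraries. In bulk tissue, fewer cells of a type and less RNA per cell cannot be told apart.

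**Figure D1:**
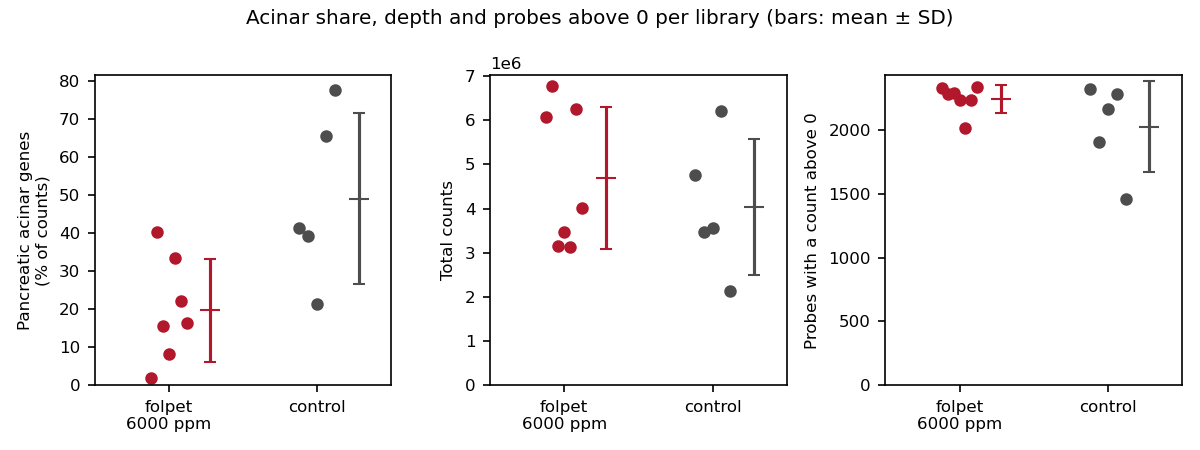
Each point is 1 library, with folpet 6000 ppm (n = 7) left of control (n = 5); the panels show the share of counts from pancreatic acinar genes in percent, total counts and the number of probes above 0, and bars give the mean ± SD. The acinar share was 19.6 ± 13.5% in folpet and 49.0 ± 22.5% in control, with overlap between the groups.

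The largest called rises among the glutathione transferases were those of Gsta2, Gsta1 and Gm3776, 3 alpha-class genes that lie near each other on mouse chromosome 9. Their promoters, from 250 bases before to 50 bases after the annotated start (RefSeq, GRCm38.p6), are shown because these genes differed widely without overlap. Capitals mark the longest stretch, 29 bases, that all 3 promoters share.
Gsta2 (chr9:78347096-78347395, minus strand): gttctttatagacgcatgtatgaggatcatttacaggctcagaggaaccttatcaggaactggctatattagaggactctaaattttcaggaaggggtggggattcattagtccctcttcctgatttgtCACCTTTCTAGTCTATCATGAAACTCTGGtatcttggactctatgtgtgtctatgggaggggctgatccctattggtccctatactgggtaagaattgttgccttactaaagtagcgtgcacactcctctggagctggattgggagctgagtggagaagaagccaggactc
Gsta1 (chr9:78230419-78230718, plus strand): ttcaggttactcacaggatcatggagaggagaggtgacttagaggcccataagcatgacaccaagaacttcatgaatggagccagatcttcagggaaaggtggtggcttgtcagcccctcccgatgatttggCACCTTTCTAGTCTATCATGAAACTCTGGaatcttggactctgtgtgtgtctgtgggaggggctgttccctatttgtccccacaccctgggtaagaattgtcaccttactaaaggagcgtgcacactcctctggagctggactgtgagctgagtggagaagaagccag
Gm3776 (chr9:78256879-78257178, plus strand): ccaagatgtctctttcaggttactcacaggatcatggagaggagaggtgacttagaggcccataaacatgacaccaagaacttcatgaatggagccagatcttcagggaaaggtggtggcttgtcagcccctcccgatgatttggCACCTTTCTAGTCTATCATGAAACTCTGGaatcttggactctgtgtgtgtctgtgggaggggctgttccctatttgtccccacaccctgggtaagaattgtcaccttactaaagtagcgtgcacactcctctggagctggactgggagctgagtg
The promoters of Gsta1 and Gm3776 were identical at 284 of 287 aligned bases (99%), whereas Gsta2 and Gsta1 were identical at 232 of 289 (80.3%). The probes read transcripts, so likeness of promoters does not show how separately they read these genes. Neither probe nor transcript sequences were compared here, so counts of Gsta1 and Gm3776 are uncertain as those of single genes.

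Promoters of called genes from the lists of glutathione genes and of other NRF2 target enzymes were searched on both strands for TGACNNNGC. These genes were thus chosen by their calls in these data. The motif is the core of the antioxidant response element to which NRF2 binds. It was found in 6 of the 26 promoters (23.1%) of the 18 called glutathione and NRF2 genes with a promoter in the table, against 12.4% of all 32851 mouse promoters of the same length. A match is a description and does not show binding. The 2 shares were not compared by a test, and sequence more than 250 bases before the start was not searched. No match was found for Akr1b10, Aldh3a2, Cat, Cbr3, Ephx1, Gm3776, Gpx4, Gsta1, Gsta2, Gstp1, Nqo1 or Taldo1. The genes with a match were Gclm, Maff, Me1, Prdx1, Txnrd1 and Ugdh. Those of Gclm, the modifier subunit of the enzyme that makes the glutathione precursor, Ugdh, the enzyme that makes UDP-glucuronic acid, and Prdx1, a peroxidase, are shown with the motif in capitals on whichever strand it occurs.
Gclm (chr3:122245307-122245606, plus strand): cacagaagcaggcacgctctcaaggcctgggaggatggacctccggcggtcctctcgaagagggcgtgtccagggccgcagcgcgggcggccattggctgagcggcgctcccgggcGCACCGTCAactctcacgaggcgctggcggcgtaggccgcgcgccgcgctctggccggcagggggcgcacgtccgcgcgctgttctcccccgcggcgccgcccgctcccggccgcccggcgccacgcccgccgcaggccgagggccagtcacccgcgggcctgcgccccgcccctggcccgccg
Ugdh (chr5:65435793-65436092, minus strand): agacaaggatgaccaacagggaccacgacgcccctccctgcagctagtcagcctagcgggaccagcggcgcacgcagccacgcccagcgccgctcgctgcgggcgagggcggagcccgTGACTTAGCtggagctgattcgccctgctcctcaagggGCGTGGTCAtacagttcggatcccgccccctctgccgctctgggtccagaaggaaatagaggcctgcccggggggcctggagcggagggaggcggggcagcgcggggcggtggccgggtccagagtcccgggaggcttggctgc
Prdx1 (chr4:116685349-116685648, plus strand): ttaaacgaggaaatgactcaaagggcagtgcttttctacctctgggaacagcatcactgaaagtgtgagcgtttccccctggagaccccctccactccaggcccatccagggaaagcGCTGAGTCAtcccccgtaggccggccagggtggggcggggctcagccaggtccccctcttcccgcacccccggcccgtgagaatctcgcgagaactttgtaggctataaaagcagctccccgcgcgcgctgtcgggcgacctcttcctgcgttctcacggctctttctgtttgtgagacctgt
The Ugdh promoter held 2 matches and those of Gclm and Prdx1 held 1 each.

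After folpet at 6000 ppm, some genes of glutathione use, NRF2 target enzymes, drug metabolism, glucocorticoid response and the immediate early response were higher, and some genes of smooth muscle, connective tissue, MHC class II and the endoplasmic reticulum were lower. Calls were made at an adjusted p (Benjamini-Hochberg) under 0.05 in edgeR's quasi-likelihood test over the 2541 probes kept by a filter on low counts. Of these, 158 (6.22%) were called, 117 higher (4.6%) and 41 lower (1.61%), and the median log2 fold change over all tested probes was -0.0004. In 78 of the 158 the folpet and control libraries did not overlap; over all tested probes, 2.99% lay wholly higher and 0.866% wholly lower. The split of higher and lower calls depended on scaling. With library totals alone, which shift the median of all probes to 0.28 log2, 50 probes were higher and 1 lower. A fit of only the folpet and control libraries called 59 higher and 18 lower. DESeq2 called 134 higher and 91 lower. Without the libraries above 50% acinar counts, here control replicates 4 and 5, 83 were higher and 21 lower, and with the acinar share as a covariate 76 were higher and 24 lower. Among the genes described here, Arnt2, B4galt1, Nqo1, Txnrd1, Jun, Btg2, Nr1i2, Cs, Erbb3, Mapk3, Dnajb6, Canx, Xbp1, Spdef, Zg16, Aldh7a1, Krt7, Clip3, Hspb6, Ero1b, Cxcl5, Gpx4, Akr1b10 and Sult1b1 lost their calls in both of these fits, Cps1, Eci1, Hyou1, Golt1b, E2f2 and Prdx1 with the covariate alone, and Nr3c1, Myl9, Acta2 and Id4 without those libraries alone. With library totals alone, Ero1b was the only called fall described here that kept its call.

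**Figure D2:**
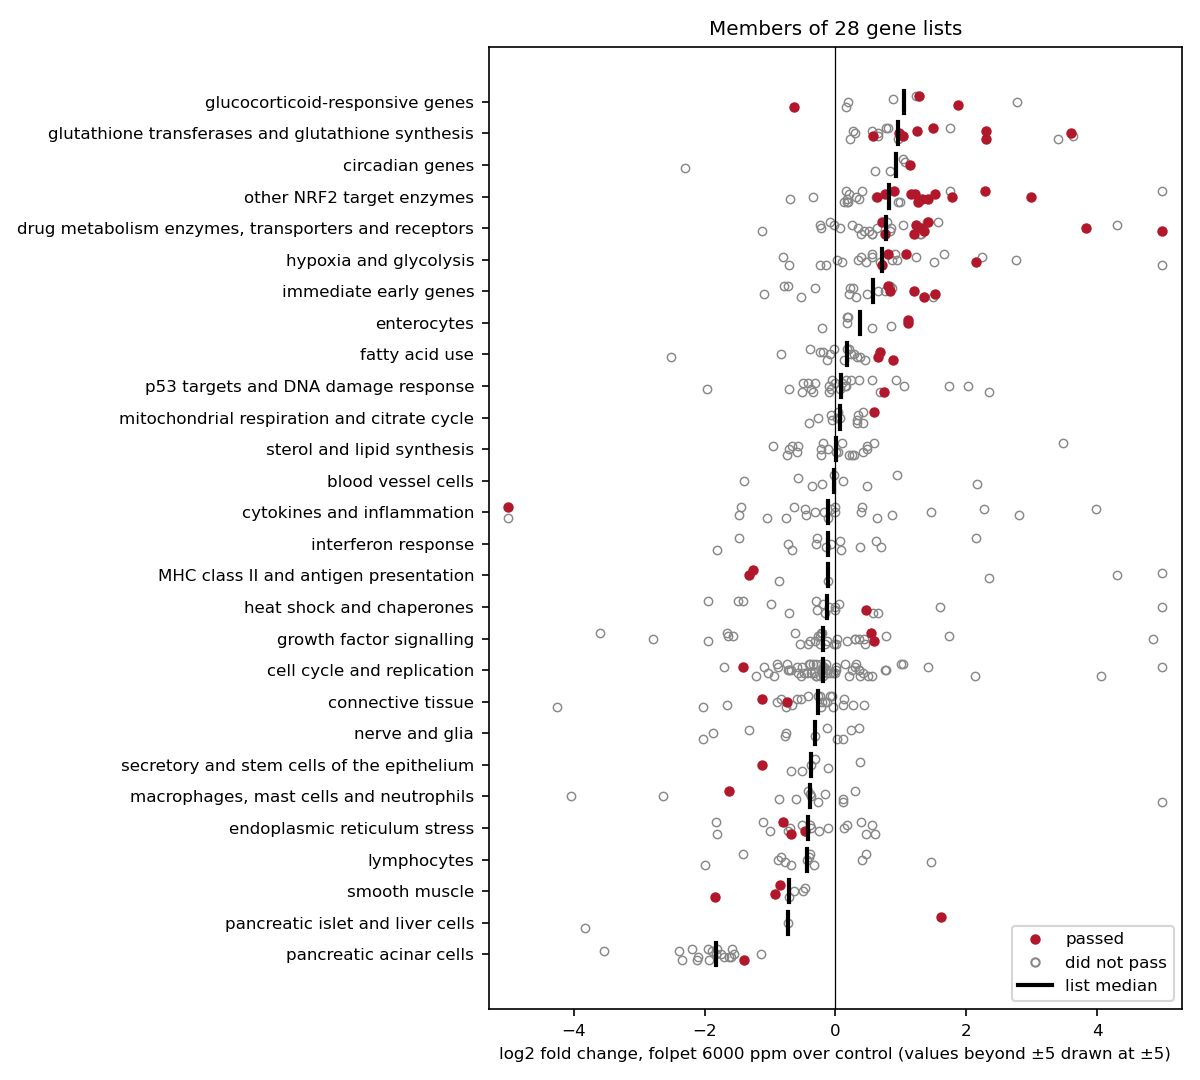
Log2 fold changes of folpet 6000 ppm over control for the tested probes of 28 gene lists, ordered by list median (black bar); filled red points passed at an adjusted p under 0.05 and open points did not, with values beyond 5 to either side drawn at 5. The glutathione and other NRF2 lists have medians of 0.96 and 0.82, against -0.0004 over all probes, and the acinar list a median of -1.83.

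The 3 alpha-class transferases rose without overlap between the groups. Gsta2, an alpha-class transferase that attaches glutathione to reactive chemicals, ran from 1677 to 4419 CPM with a median of 3095 CPM in the folpet libraries, against 388, 104, 188, 243 and 277 CPM in the control libraries. Every folpet library lay above every control library, by a log2 fold change of 3.61 ± 0.52 (± standard error, as below; edgeR adjusted p = 1.10e-05). Gsta1, a close relative, ran from 15196 to 25075 CPM with a median of 19013 CPM in the folpet libraries, against 5762, 1770.0, 2947, 7507 and 2726 CPM in the control libraries. Its groups did not overlap either, and it rose by 2.31 ± 0.38 log2 (edgeR adjusted p = 0.000106). Gm3776, a predicted transferase gene beside it, ran from 11731 to 26793 CPM with a median of 19755 CPM in the folpet libraries, against 5764, 1692, 2420.0, 6614 and 2569 CPM in the control libraries. Control replicates 1 and 4 were the highest controls for both Gsta1 and Gm3776, and the log2 fold change of Gm3776 was 2.31 ± 0.41 (edgeR adjusted p = 0.000282).

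The pi-class transferase Gstp1 was higher by a smaller factor. It ran from 12089 to 15142 CPM with a median of 12813 CPM in the folpet libraries, against 5792, 6631, 6215, 10321 and 4321 CPM in the control libraries, without overlap, at 0.97 ± 0.20 log2 (edgeR adjusted p = 0.00111). Gclm ran from 156 to 447 CPM with a median of 192 CPM in the folpet libraries, against 81.3, 148, 115, 88.4 and 148 CPM in the control libraries. Its lowest folpet library lay just above the highest control library, at 1.03 ± 0.26 log2 (edgeR adjusted p = 0.00686). Gsr, which regenerates reduced glutathione with NADPH, Abcc3, an exporter of conjugates, and Gpx4, which reduces lipid peroxides, passed as well at 1.50, 1.24 and 0.57 log2. The other probe of Gpx4 did not pass, at 0.22 log2, and Gpx4 lost its call without folpet replicate 1, 4 or 6 or control replicate 4 or 5, with adjusted p up to 0.154 in edgeR. Gsr, Abcc3 and Gpx4 were named after their values were seen, as were Me1, Akr1b10, Aldh3a2, Prdx1, Abcb1a and Sult1b1 below. In all, 8 of the 19 glutathione genes tested rose and 11 did not pass, beside 4.6% of all tested probes called higher. All 20 probes of the list had positive values, with a median of 0.96 log2 against -0.0004 over all probes. Gsta3, a further alpha-class transferase, missed the threshold at 3.40 ± 1.10 log2 (edgeR adjusted p = 0.0556), with 12.4 to 92.0 CPM with a median of 24.2 CPM in folpet and 10.8, 0, 0, 3.77 and 0 CPM in control. Gclc, the catalytic partner of Gclm, also missed it at 1.76 ± 0.57 log2 (edgeR adjusted p = 0.053).

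Among the other NRF2 target enzymes, 12 of 27 genes rose and 15 did not pass, beside 4.6% of all tested probes called higher. The list median was 0.82 log2. Ugdh ran from 29570.2 to 55076 CPM with a median of 43086 CPM in the folpet libraries, against 9061, 10079, 13274, 20869.8 and 9017 CPM in the control libraries. No control library reached the folpet range, and its log2 fold change was 1.78 ± 0.30 (edgeR adjusted p = 0.000106). Cbr3, a carbonyl reductase, ran from 480.3 to 2339 CPM with a median of 629 CPM in the folpet libraries, against 105, 67.2, 123, 192 and 68.5 CPM in the control libraries. Folpet replicate 1 was the highest library, and Cbr3 rose by 2.99 ± 0.61 log2 (edgeR adjusted p = 0.00147), a call lost in limma-voom. Ephx1, the microsomal epoxide hydrolase, ran from 831 to 1519 CPM with a median of 1065 CPM in the folpet libraries, against 249.7, 203, 159, 462 and 25.2 CPM in the control libraries. Control replicate 5 was far below the other controls, and the difference was 2.29 ± 0.53 log2 (edgeR adjusted p = 0.00493).

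Enzymes of hydrogen peroxide and NADPH supply belonged to the same group. Cat, the catalase that removes hydrogen peroxide, ran from 1823 to 2619 CPM with a median of 2035 CPM in the folpet libraries, against 1199, 1029, 773, 959 and 564 CPM in the control libraries. Taldo1, transaldolase of the pentose phosphate pathway, ran from 2209 to 2926 CPM with a median of 2438 CPM in the folpet libraries, against 1144, 998, 841, 1363 and 684 CPM in the control libraries. For both genes every folpet library lay above every control library, at 1.26 ± 0.17 and 1.32 ± 0.18 log2 (edgeR adjusted p = 8.91e-07 and 1.20e-06). Me1, the malic enzyme that makes NADPH, Akr1b10, an aldo-keto reductase, Aldh3a2, a fatty aldehyde dehydrogenase, and Prdx1 passed at 1.15, 1.21, 0.76 and 0.64 log2. The other probe of Aldh3a2 did not pass, at -0.34 log2. Akr1b10 did not pass without folpet replicate 4 or control replicate 2, 3 or 4, nor Prdx1 without control replicate 3 or 5, with adjusted p up to 0.0979 and 0.102 in edgeR.

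The classical marker enzymes of NRF2 were near the threshold. Nqo1, a quinone reductase, ran from 217 to 806 CPM with a median of 281 CPM in the folpet libraries, against 173, 103, 109.6, 225 and 91.0 CPM in the control libraries. Control replicate 4 overlapped the lowest folpet library, and Nqo1 passed at 1.41 ± 0.42 log2 (edgeR adjusted p = 0.0361). That call was lost in limma-voom, with the acinar share as a covariate and without the controls above 50% acinar counts, with adjusted p up to 0.165, and in edgeR without folpet replicate 1 or 6 or control replicate 2, 3 or 5, with adjusted p up to 0.103 in edgeR. Txnrd1, a thioredoxin reductase, ran from 506 to 904 CPM with a median of 559 CPM in the folpet libraries, against 293, 336, 439, 488 and 117 CPM in the control libraries. The groups did not overlap, but its call at 0.89 ± 0.28 log2 (edgeR adjusted p = 0.0483) held in 7 of 21 alternative settings of the processing and was lost without folpet replicate 1, 3, 5, 6 or 7 or control replicate 1, 2 or 5, with adjusted p up to 0.154 in edgeR. Srxn1, sulfiredoxin, did not pass at 0.96 ± 0.31 log2 (edgeR adjusted p = 0.0578). Hmox1, haem oxygenase, was at 0 in most libraries, with 4.11 CPM in its highest folpet library and 6.80 CPM in its highest control library.

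**Figure D3:**
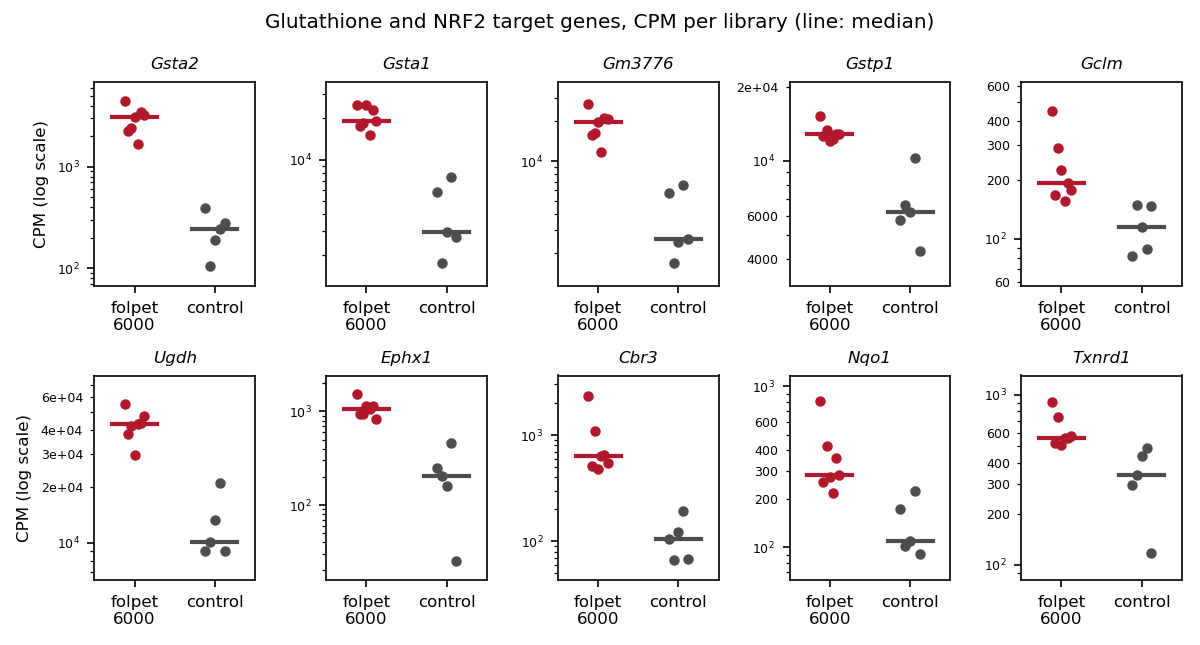
CPM on a log axis for 10 glutathione and NRF2 target genes; each point is 1 library, folpet 6000 ppm (n = 7) is left of control (n = 5), and the line is the group median. The groups overlap for Nqo1 and do not overlap for the other 9 genes.

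Of 30 drug metabolism genes tested, 8 rose, none fell and 22 did not pass, beside 4.6% of all tested probes called higher. The list median was 0.77 log2. Ces1g, a carboxylesterase, ran from 691 to 1339.5 CPM with a median of 788 CPM in the folpet libraries, against 165, 26.4, 72.5, 45.8 and 0 CPM in the control libraries. No control library reached the lowest folpet library, and the log2 fold change was 3.84 ± 0.72 (edgeR adjusted p = 0.000547); the call was lost in limma-voom. Por, the reductase that passes electrons to cytochrome P450 enzymes, ran from 379 to 615 CPM with a median of 463 CPM in the folpet libraries, against 204, 192, 200.2, 115 and 149.5 CPM in the control libraries. It had one of the 5 smallest p-values among the rises, at 1.41 ± 0.19 log2 (edgeR adjusted p = 9.77e-07). Fmo5, a flavin monooxygenase, ran from 933 to 1380.1 CPM with a median of 1060.0 CPM in the folpet libraries, against 495, 509, 534, 638 and 222 CPM in the control libraries, without overlap, at 1.20 ± 0.16 log2 (edgeR adjusted p = 8.91e-07).

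The 2 xenobiotic receptors were higher as well. Nr1i3, which encodes CAR, ran from 605 to 873 CPM with a median of 837 CPM in the folpet libraries, against 447, 175, 375, 349 and 189 CPM in the control libraries. Its groups did not overlap, at 1.36 ± 0.17 log2 (edgeR adjusted p = 8.91e-07), and its other probe passed at 1.23 log2. Nr1i2, which encodes PXR, ran from 465 to 738 CPM with a median of 562 CPM in the folpet libraries, against 536, 454, 289, 289.7 and 196 CPM in the control libraries. Control replicate 1 lay within the folpet range, and the change was 0.72 ± 0.19 log2 (edgeR adjusted p = 0.0136), lost without control replicate 5, with library totals alone, in the fit of only the 2 groups, with the acinar share as a covariate and without the controls above 50% acinar counts, with edgeR adjusted p up to 0.247. Cyp2b10, a P450 that CAR is known to induce, and Cyp3a11, one that PXR is known to induce, did not pass, at 0.63 ± 0.34 and 0.44 ± 0.39 log2 (edgeR adjusted p = 0.337 and 0.647).

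Cyp2a5, a P450 that oxidises nicotine and coumarin, was counted in 6 of 7 folpet libraries and in no control library. Its counts were 526, 196, 176, 0, 105, 225 and 74 in folpet replicates 1 to 7, against 0 in each of the 5 control libraries, and it was called (edgeR adjusted p = 0.00175). No fold change is given, because low counts may have been removed before deposit, and a control of 0 then sets no lower bound. Cyp2a5 has near-identical relatives and is uncertain as a single gene. The remaining called members, Abcb1a, the drug efflux pump, and Sult1b1, a sulfotransferase, rose by 1.32 and 0.76 log2.

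Among 7 glucocorticoid-responsive genes, Tsc22d3 and Fkbp5 rose, Nr3c1 fell and 4 did not pass, with a median of 1.06 log2. Over all tested probes 4.6% were called higher and 1.61% lower. Tsc22d3, a leucine zipper protein that glucocorticoids induce, ran from 1989 to 2525 CPM with a median of 2326 CPM in the folpet libraries, against 936, 1093, 648, 1142 and 856 CPM in the control libraries. Its lowest folpet library was above its highest control library, at 1.28 ± 0.19 log2 (edgeR adjusted p = 3.97e-06); another probe with fewer counts did not pass at 0.87 log2. Fkbp5, a co-chaperone of the glucocorticoid receptor, ran from 3669 to 5832 CPM with a median of 4890.0 CPM in the folpet libraries, against 1793, 1323, 788, 839 and 1791 CPM in the control libraries. Here too the lowest folpet library exceeded the highest control library, at 1.87 ± 0.39 log2 (edgeR adjusted p = 0.00166). Nr3c1, the receptor itself, ran from 97.6 to 167 CPM with a median of 122 CPM in the folpet libraries, against 224, 180.3, 180.2, 142 and 257 CPM in the control libraries. Control replicate 4 lay within the folpet range, and its call at -0.63 ± 0.19 log2 (edgeR adjusted p = 0.0377) held in 7 of 21 alternatives; it was lost without folpet replicate 1, 2, 5, 6 or 7 or control replicate 1, 2, 3 or 5, with adjusted p up to 0.135 in edgeR.

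Immediate early genes are switched on within minutes of a signal. Of 19 tested, 5 rose, none fell and 14 did not pass, beside 4.6% of all tested probes called higher. The list median was 0.57 log2. Fos, a subunit of the AP-1 transcription factor, ran from 454 to 879 CPM with a median of 673 CPM in the folpet libraries, against 242, 231, 487, 275 and 201 CPM in the control libraries. Control replicate 3 overlapped the lowest folpet library, and Fos rose by 1.21 ± 0.23 log2 (edgeR adjusted p = 0.000481). Klf4, a zinc finger factor of differentiating epithelium, ran from 258 to 387 CPM with a median of 359 CPM in the folpet libraries, against 119, 240.2, 167, 100.3 and 37.8 CPM in the control libraries, without overlap, at 1.35 ± 0.24 log2 (edgeR adjusted p = 0.000193). Maff, a small MAF protein that can pair with NRF2 and is also in the NRF2 list, ran from 109 to 248 CPM with a median of 158 CPM in the folpet libraries, against 34.3, 75.9, 52.3, 73.1 and 48.6 CPM in the control libraries, again without overlap, at 1.53 ± 0.27 log2 (edgeR adjusted p = 0.000106).

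Jun and Btg2 passed with less margin, and other well-known members did not pass. Jun, the partner of Fos, ran from 140.4 to 346 CPM with a median of 245 CPM in the folpet libraries, against 191, 126, 124, 54.5 and 204 CPM in the control libraries. Control replicates 1 and 5 lay within the folpet range, and its call at 0.84 ± 0.26 log2 (edgeR adjusted p = 0.0377) was lost without folpet replicate 3, 5 or 6 or control replicate 2, 3 or 4, with adjusted p up to 0.14 in edgeR. Btg2, an antiproliferative gene, rose by 0.80 ± 0.22 log2 (edgeR adjusted p = 0.0203) and lost its call without control replicate 4, at an edgeR adjusted p of 0.0787. Egr1 and Atf3 were low and did not pass, at -0.72 ± 0.93 and 0.84 ± 0.79 log2 (edgeR adjusted p = 0.771 and 0.672). With the acinar share as a covariate, or without the 2 controls above 50% acinar counts, 3 of the 19 immediate early genes passed.

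In the hypoxia and glycolysis list, 4 of 23 genes rose, none fell and 19 did not pass, with a median of 0.72 log2. Over all tested probes 4.6% were called higher. Bnip3, a mitochondrial protein induced by low oxygen, ran from 69.8 to 106 CPM with a median of 92.9 CPM in the folpet libraries, against 17.5, 12.9, 15.6, 49.6 and 0 CPM in the control libraries, without overlap, at 2.16 ± 0.42 log2 (edgeR adjusted p = 0.000403). Car9, a carbonic anhydrase induced by low oxygen, ran from 352 to 955 CPM with a median of 667 CPM in the folpet libraries, against 473, 293, 296, 334 and 216 CPM in the control libraries. Control replicate 1 lay within the folpet range, and Car9 rose by 1.07 ± 0.24 log2 (edgeR adjusted p = 0.00247). The glycolytic enzymes Aldoa and Tpi1 rose by 0.80 ± 0.20 and 0.72 ± 0.16 log2 (edgeR adjusted p = 0.00761 and 0.00278), each without overlap. Vegfa, an angiogenic target of the same pathway, did not pass at -0.15 ± 0.26 log2 (edgeR adjusted p = 0.833). With only the folpet and control libraries in the fit, 1 of the 23 genes passed.

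Genes of fatty acid use and of enterocytes moved by smaller amounts. Of 19 fatty acid genes 3 rose, with a list median of 0.18 log2, and of 8 enterocyte genes 2 rose, with a median of 0.37 log2. Over all tested probes 4.6% were called higher. Creb3l3, a membrane-bound factor that controls triglyceride genes in liver and gut, ran from 3386 to 4962 CPM with a median of 3798 CPM in the folpet libraries, against 2408, 2215, 1819, 1947 and 982 CPM in the control libraries, without overlap, at 1.11 ± 0.17 log2 (edgeR adjusted p = 6.47e-06). Apoa1, the main protein of high-density lipoprotein, ran from 8358 to 13939 CPM with a median of 11548 CPM in the folpet libraries, against 9032, 5719, 4646, 5753 and 1903 CPM in the control libraries. Control replicate 1 overlapped the folpet range, and Apoa1 rose by 1.10 ± 0.23 log2 (edgeR adjusted p = 0.000883). Ppara, the nuclear receptor for fatty acids, rose by 0.88 ± 0.20 log2 (edgeR adjusted p = 0.0028), with control replicates 4 and 5 inside the folpet range. Eci1, an isomerase of mitochondrial beta-oxidation, passed at 0.68 ± 0.20 log2 (edgeR adjusted p = 0.0344) in 12 of 21 alternatives, and its call was lost without folpet replicate 2 or 4 or control replicate 2, 3 or 5, with adjusted p up to 0.112 in edgeR. The summed enterocyte level given above was higher in folpet by its median, 82242 CPM against 55249 CPM in control, and its part in these calls was not tested.

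Some smooth muscle genes were lower. Of 7 tested, Flna, Acta2 and Myl9 fell, none rose and 4 did not pass, beside 1.61% of all tested probes called lower. All 7 values were negative, with a median of -0.71 log2, or -0.48 log2 and no call with library totals alone. Flna, filamin A, which cross-links actin, ran from 40.4 to 81.4 CPM with a median of 56.7 CPM in the folpet libraries, against 131, 239, 184, 104 and 382 CPM in the control libraries. All 7 folpet libraries were below all 5 control libraries, at -1.84 ± 0.30 log2 (edgeR adjusted p = 4.07e-05). Acta2, smooth muscle actin, ran from 193 to 336 CPM with a median of 250.3 CPM in the folpet libraries, against 234, 384, 718, 635 and 462 CPM in the control libraries. Control replicate 1 lay within the folpet range, at -0.92 ± 0.21 log2 (edgeR adjusted p = 0.00319). Myl9, a myosin light chain, ran from 145 to 307 CPM with a median of 237 CPM in the folpet libraries, against 418, 303, 428, 368 and 570.2 CPM in the control libraries, with control replicate 2 just inside the folpet range, at -0.85 ± 0.23 log2 (edgeR adjusted p = 0.0157). Without control replicate 5 Myl9 did not pass (edgeR adjusted p = 0.0828), and without the 2 controls above 50% acinar counts 1 of the 7 genes passed. The 7 probes summed to 1377 to 2149 CPM in folpet and 2032 to 3554 CPM in control. Whether the sections held less muscle wall was not tested.

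Of 24 connective tissue genes 2 fell, Col6a3 and Mmp14, and 22 did not pass, beside 1.61% of all tested probes called lower. The list median was -0.26 log2, or -0.16 log2 and no call with library totals alone. Col6a3, a chain of collagen VI, ran from 40.6 to 105 CPM with a median of 75.4 CPM in the folpet libraries, against 70.9, 229.7, 163, 203 and 157 CPM in the control libraries. Control replicate 1 was as low as the folpet libraries, and Col6a3 fell by 1.12 log2 with a standard error of 0.26 (edgeR adjusted p = 0.00319). Mmp14, a membrane-bound matrix protease, ran from 96.8 to 158 CPM with a median of 142 CPM in the folpet libraries, against 166, 184, 316, 251 and 160.3 CPM in the control libraries. The groups did not overlap, at -0.74 ± 0.20 log2 (edgeR adjusted p = 0.015), yet without control replicate 3 its edgeR adjusted p was 0.124. The count for the list was 1 without control replicate 3 and 4 without control replicate 5. Col1a1, the main chain of collagen I, did not pass at -0.12 ± 0.21 log2 (edgeR adjusted p = 0.83).

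Of 7 genes of MHC class II and antigen presentation, Cd74 and H2-Aa fell and 5 did not pass, beside 1.61% of all tested probes called lower. The list median was -0.12 log2, which turned to 0.06 log2 with no call with library totals alone. Cd74, the invariant chain that escorts class II molecules, ran from 2974 to 11788 CPM with a median of 6705 CPM in the folpet libraries, against 12868, 25588, 13843, 19248 and 8371 CPM in the control libraries. Control replicate 5 was the lowest control and lay within the folpet range, and the difference was -1.26 ± 0.29 log2 (edgeR adjusted p = 0.00375). H2-Aa, a class II alpha chain, ran from 128 to 464 CPM with a median of 176 CPM in the folpet libraries, against 723, 989.8, 363, 470.3 and 186 CPM in the control libraries. Its call at -1.32 ± 0.41 log2 (edgeR adjusted p = 0.0451) was lost without folpet replicate 1, 2, 3, 4, 6 or 7 or control replicate 1, 2 or 4, with adjusted p up to 0.207 in edgeR. Macrophage, mast cell and neutrophil markers summed to 1948 to 2677 CPM in folpet and 1438 to 3346 CPM in control, and 3 of their 17 probes (S100a8, S100a9 and Elane) were at 0 in both groups. Fcgr3, a receptor for antibodies on myeloid cells, was their only called member, at -1.63 ± 0.45 log2 (edgeR adjusted p = 0.0197), and it did not pass without control replicate 1 (edgeR adjusted p = 0.107).

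In the endoplasmic reticulum list, Hyou1, Xbp1 and Canx fell, none rose and 15 of 18 genes did not pass. Over all tested probes 1.61% were called lower. The list median was -0.42 log2, or -0.13 log2 and no call with library totals alone. Hyou1, a chaperone of the reticulum, ran from 247 to 392 CPM with a median of 294 CPM in the folpet libraries, against 353, 569, 520.4, 562 and 469 CPM in the control libraries. Control replicate 1 lay within the folpet range, at -0.68 ± 0.16 log2 (edgeR adjusted p = 0.00493). Xbp1, a transcription factor of secretory cells, ran from 198 to 421 CPM with a median of 289.5 CPM in the folpet libraries, against 372, 175, 469, 694 and 786 CPM in the control libraries. Control replicate 2 was below every folpet library and the other 4 controls reached up to 786 CPM, and its fall of 0.80 log2 (edgeR adjusted p = 0.0347) held in 8 of 21 alternatives; it was lost without folpet replicate 1, 4, 5 or 6 or control replicate 3, 4 or 5, with adjusted p up to 0.208 in edgeR, and the other probe did not pass at -1.81 log2. Canx, calnexin, was at -0.46 ± 0.14 log2 (edgeR adjusted p = 0.0385), and its call was lost without folpet replicate 1, 2, 3, 4, 5 or 6 or control replicate 1 or 4, with adjusted p up to 0.287 in edgeR.

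Acinar cells are rich in endoplasmic reticulum, and the acinar share had a median of 16.3% in folpet and 41.3% in control. With that share as a covariate, or without the 2 controls above 50%, 1 of the 18 reticulum genes passed. Over all probes these settings gave 100 and 104 calls, against 158 in the main fit. The part of the acinar share in these falls was not tested. Ero1b, an oxidase of protein folding, ran from 15.6 to 61.2 CPM with a median of 34.7 CPM in the folpet libraries, against 128, 78.0, 56.2, 146 and 763 CPM in the control libraries. Control replicate 5 stood far above the others, and the call at -2.60 ± 0.68 log2 (edgeR adjusted p = 0.0143) was lost without it (edgeR adjusted p = 0.245). Spcs3, a subunit of the signal peptidase, and Golt1b, a Golgi transport protein, fell without overlap, at -0.77 ± 0.16 and -1.18 ± 0.26 log2 (edgeR adjusted p = 0.000844 and 0.00166); Golt1b lost its call with the acinar covariate and Spcs3 kept it.

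**Figure D4:**
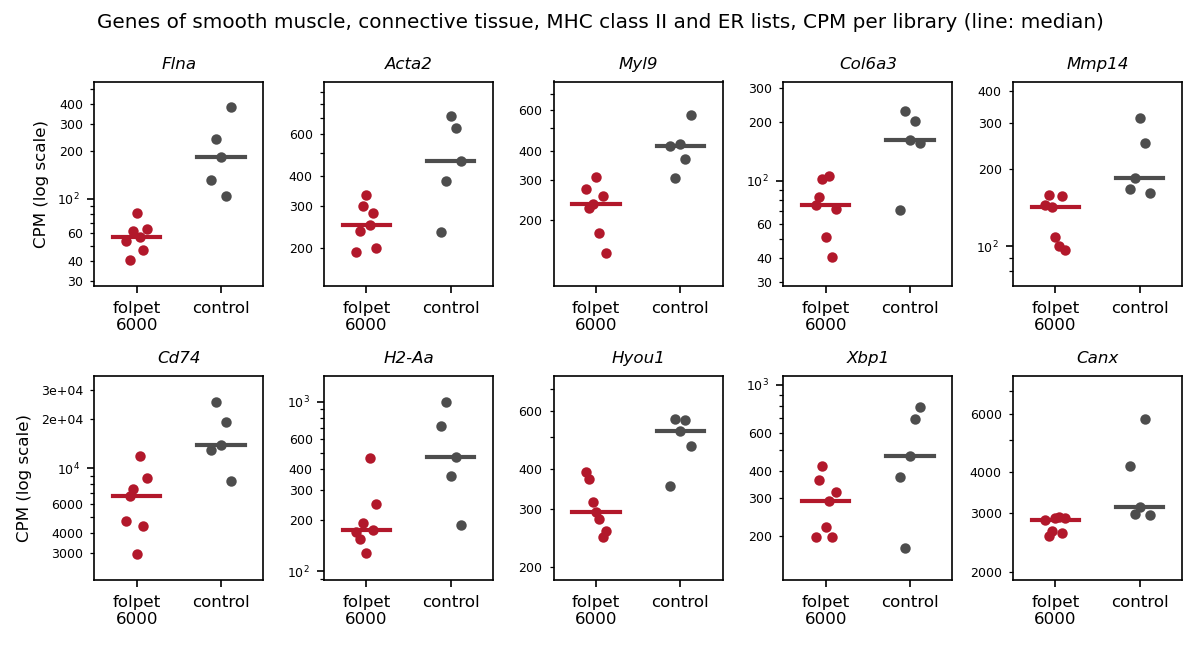
CPM on a log axis for 10 genes called lower; each point is 1 library, folpet 6000 ppm (n = 7) is left of control (n = 5), and the line is the group median. The groups do not overlap for Flna, Mmp14 and Canx and overlap for the other 7 genes.

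Of 56 cell cycle genes 1 fell and 55 did not pass, beside 1.61% of all tested probes called lower, with a median of -0.19 log2. That gene, E2f2, a transcription factor of the cell cycle, ran from 6.81 to 33.5 CPM with a median of 27.7 CPM in the folpet libraries, against 34.5, 137, 58.7, 51.0 and 42.3 CPM in the control libraries, at -1.42 ± 0.44 log2 (edgeR adjusted p = 0.0398); the call was lost without folpet replicate 2, 4, 5 or 6 or control replicate 2 or 3, with adjusted p up to 0.262 in edgeR. Mki67, a marker of dividing cells, did not pass at -0.39 ± 0.56 log2 (edgeR adjusted p = 0.802), and Pcna did not meet the filter. Of 25 p53 targets 1 rose, beside 4.6% of all tested probes called higher, with a median of 0.09 log2: Cdkn1a, an inhibitor of the cell cycle, ran from 427 to 592 CPM with a median of 478 CPM in the folpet libraries, against 276, 309.5, 279, 164 and 423 CPM in the control libraries. Its lowest folpet library was just above its highest control library, at 0.75 ± 0.18 log2 (edgeR adjusted p = 0.00565). Mdm2, another p53 target, did not pass at -0.34 ± 0.28 log2 (edgeR adjusted p = 0.593).

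Other lists held 1 or 2 called genes, beside 4.6% of all tested probes called higher and 1.61% called lower. The called probes were 2 of 32 for growth factors, 1 of 18 for chaperones and 1 of 13 for mitochondrial respiration. They were 1 of 6 for circadian genes, 1 of 3 for islet and liver and 1 of 7 for secretory and stem cells. Counts this small are no result about these lists. The growth factor receptor Erbb3 and the kinase Mapk3 rose by 0.59 ± 0.17 and 0.54 ± 0.14 log2 (edgeR adjusted p = 0.023 and 0.00715) among 25 growth factor genes; neither passed with the acinar covariate, and Erbb3 did not pass without control replicate 5 (edgeR adjusted p = 0.104). Dbp, a clock-controlled transcription factor, rose by 1.14 ± 0.30 log2 (edgeR adjusted p = 0.0168), but not without control replicate 5 (edgeR adjusted p = 0.0715). Cps1, the first enzyme of the urea cycle, which intestine also expresses, rose by 1.61 ± 0.40 log2 (edgeR adjusted p = 0.00661), a call lost in limma-voom and with the acinar covariate, with adjusted p up to 0.112. Spdef, a transcription factor of goblet cells, fell by 1.12 log2 (edgeR adjusted p = 0.0401), in 9 of 21 alternatives; the call was lost without folpet replicate 1, 2, 3, 4, 5 or 7 or control replicate 3 or 5, with adjusted p up to 0.171 in edgeR. Citrate synthase, Cs, rose by 0.59 ± 0.16 log2 (edgeR adjusted p = 0.0148), a call lost without control replicate 5 (edgeR adjusted p = 0.0639), and the chaperone Dnajb6 passed at 0.48 ± 0.15 log2 (edgeR adjusted p = 0.0404) in 8 of 21 alternatives, and not without folpet replicate 2, 5 or 6 or control replicate 3, 4 or 5, with adjusted p up to 0.119 in edgeR. Hspa1b, an inducible heat shock protein, and Ddit3, which encodes CHOP, did not pass at -1.48 ± 0.73 and 0.60 ± 0.42 log2 (edgeR adjusted p = 0.262 and 0.505). The 5 lists for blood vessels, interferon, lymphocytes, nerve and sterol synthesis had no called member, with medians of -0.02, -0.11, -0.43, -0.31 and 0.00 log2.

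Other genes with the largest changes or smallest p-values belonged to no list. Tsku, a secreted leucine-rich protein, ran from 365 to 705 CPM with a median of 477 CPM in the folpet libraries, against 195, 148, 217, 168 and 119.8 CPM in the control libraries. It shared the smallest adjusted p of the comparison with Cat, Nr1i3 and Fmo5, at 1.61 ± 0.22 log2 (edgeR adjusted p = 8.91e-07); its other probe did not pass, at 1.57 log2. Capg, an actin-capping protein, ran from 53.4 to 153 CPM with a median of 116 CPM in the folpet libraries, against 27.9, 0, 24.5, 26.7 and 18.0 CPM in the control libraries, without overlap, at 2.53 ± 0.56 log2 (edgeR adjusted p = 0.00295), and lost its call in limma-voom. B4galt1, a galactosyltransferase, passed with both probes, at 1.79 and 3.20 log2; the probe with more counts lost its call without folpet replicate 5 (edgeR adjusted p = 0.0538). Arnt2, a partner of PAS transcription factors, whose other probe did not pass at 2.57 log2, passed at 2.55 ± 0.77 log2 (edgeR adjusted p = 0.035) in 11 of 21 alternatives, and not without folpet replicate 5 or 6 or control replicate 1, 2, 4 or 5, with adjusted p up to 0.0818 in edgeR.

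Among the falls with the smallest p-values was Ythdf1, a reader of methylated adenosine in RNA. It ran from 96.3 to 166 CPM with a median of 129.6 CPM in the folpet libraries, against 249, 257, 272, 264 and 244 CPM in the control libraries. Each of the 7 folpet libraries lay below each of the 5 control libraries, at -0.96 ± 0.16 log2 (edgeR adjusted p = 4.50e-05). Trp53inp2, a protein of autophagy, fell by 0.99 log2 (edgeR adjusted p = 0.00141), with control replicate 1 inside the folpet range. With library totals alone neither passed. Hspb6, a small heat shock protein of muscle, Clip3, a microtubule-binding protein, Id4, an inhibitor of helix-loop-helix factors, Krt7, a keratin of ducts, and Aldh7a1, an aldehyde dehydrogenase, fell by 2.23, 1.86, 1.77, 1.62 and 1.61 log2. Each of these 5 lost its call without at least 1 library (edgeR adjusted p without 1 library up to 0.102, 0.0583, 0.0908, 0.188 and 0.174). The libraries were folpet 6 and control 5 for Hspb6, control 1 and 4 for Clip3, control 1 and 5 for Id4, folpet 1, 5 and 6 and control 2 and 5 for Krt7, and folpet 1 and 4 and control 4 and 5 for Aldh7a1. Ndufv3, a respiratory chain subunit, has 2 probes that differed: the one with more counts did not pass at 0.01 log2 and the other passed at -1.56 log2. Cxcl5, a chemokine, had counts of 0 in all 7 folpet libraries, against 52, 0, 42, 0 and 0 in the control libraries; it passed (edgeR adjusted p = 0.0495) in 4 of 20 alternatives, and not without any single folpet library or without control replicate 1, 3 or 5, with adjusted p up to 0.085 in edgeR.

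Captan at 6000 ppm, the matched dose of a related fungicide, was set beside folpet at 6000 ppm (n = 7 each). Both carry the trichloromethylthio group on the nitrogen of a cyclic imide, which in captan belongs to a partly saturated ring system and in folpet to an aromatic one. Folpet was higher for 4 of 2541 probes (0.157%) and lower for none in edgeR; 77 were higher and 53 lower at an unadjusted p under 0.05, and DESeq2 and limma-voom each called 11 higher and 2 lower. With library totals alone Ddit4 was the 1 probe called. The acinar share did not differ beyond the spread, at 19.6 ± 13.5% in folpet and 18.3 ± 14.8% in captan (SD, n = 7 each; 2-sided exact permutation test, p = 0.861, adjusted over 3 comparisons 0.861).

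The 4 genes were Tsc22d3, Ddit4, Btg2 and Nfkbia. Over all tested probes, 0.275% lay wholly higher in folpet than in captan and 0.0394% wholly lower. The lowest, median and highest libraries of Tsc22d3 had 1989, 2326 and 2525 CPM after folpet, against 717, 1046 and 1500.1 CPM after captan. The groups did not overlap, at 1.11 ± 0.17 log2 (edgeR adjusted p = 4.84e-05). Ddit4, an inhibitor of mTOR signalling that glucocorticoids and low oxygen induce, had 44.6, 133 and 186 CPM after folpet, against 4.42, 30.5 and 43.6 CPM after captan, again without overlap, at 2.22 ± 0.43 log2 (edgeR adjusted p = 0.00811); DESeq2 did not call it. Btg2 had 234, 435 and 510.4 CPM after folpet and 129, 187 and 312 CPM after captan, at 0.99 ± 0.20 log2 (edgeR adjusted p = 0.00867). Nfkbia, the inhibitor of NF-kappa-B, had 572, 848 and 1192 CPM after folpet and 412, 561 and 654 CPM after captan, at 0.64 ± 0.14 log2 (edgeR adjusted p = 0.0122), and did not pass without folpet replicate 3 or captan replicate 1 or 2, with adjusted p up to 0.0819 in edgeR. Of the 4 genes, Tsc22d3 and Btg2 passed against control, as given above. Ddit4 and Nfkbia did not pass against control, at 1.24 ± 0.47 and 0.39 ± 0.15 log2 (edgeR adjusted p = 0.123 and 0.114). The control libraries had 37.2, 24.5, 12.2, 41.5 and 157 CPM for Ddit4, with control replicate 5 the highest. Ddit4 passed in 5 of 21 alternatives. Among them were the fits without control replicate 5 and without the controls above 50% acinar counts, the latter at 2.37 log2. Nfkbia passed in 1 of 21. Mean CPM after captan and in control were 26.9 and 54.4 for Ddit4 and 548 and 650 for Nfkbia. They were 200 and 229 for Btg2 and 1046 and 935 for Tsc22d3. Fkbp5 had 3669, 4890.0 and 5832 CPM after folpet and 842, 1992 and 2770.3 CPM after captan, without overlap, but did not pass at 1.36 ± 0.34 log2 (edgeR adjusted p = 0.0873).

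No gene of the glutathione list or of the other NRF2 list passed between the compounds, and their medians were 0.09 and -0.06 log2. The 95% interval of the difference ran from -0.56 to 1.03 log2 for Gsta2, from -0.65 to 0.60 for Gsta1, from -0.51 to 0.50 for Ugdh, from -0.85 to 0.59 for Nqo1 and from -0.28 to 0.61 for Gclm. For Por and Maff the 95% intervals, from 0.25 to 0.91 and from 0.33 to 1.25 log2, lay above 0 but the genes did not pass over all probes (edgeR adjusted p = 0.234 and 0.275). Of the 71 named genes that passed against control, 48 had an interval within a 2-fold difference of captan in either direction, all of them among the 69 that did not pass here. Both comparisons use the same folpet libraries. The median 95% interval over all probes, which is not adjusted for the number of probes, reached 0.90 log2 to each side. Smaller differences between the compounds could not be detected for most probes. Larger ones could also miss the adjusted threshold, as Fkbp5 did at 1.36 log2.

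**Figure D5:**
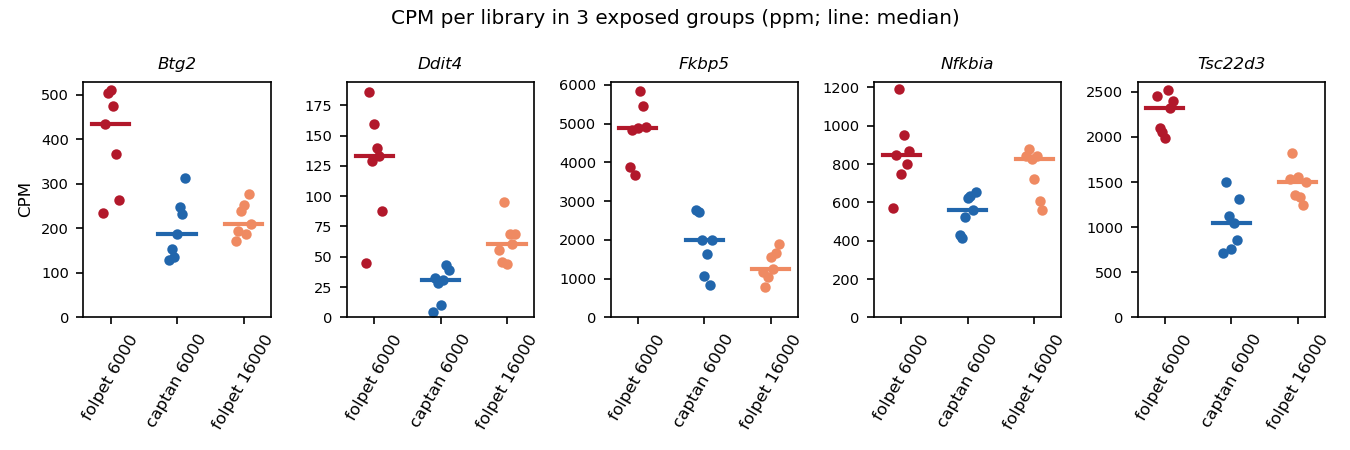
CPM per library for Fkbp5 and the 4 genes called between folpet 6000 ppm and captan 6000 ppm; each point is 1 library of folpet 6000 ppm, captan 6000 ppm or folpet 16000 ppm (n = 7 each) and the line is the group median. For Tsc22d3 and Fkbp5 every folpet 6000 ppm library lies above every library of the other 2 groups.

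Folpet at 6000 ppm was also compared with folpet at 16000 ppm (n = 7 each), to ask which genes differed between the doses. Of 2541 probes 44 (1.73%) were called, 29 higher at the lower dose (1.14%) and 15 lower (0.59%), and the acinar share was 19.6 ± 13.5% at 6000 ppm and 26.3 ± 10.7% at 16000 ppm (SD, n = 7 each; 2-sided exact permutation test, p = 0.321, adjusted over 3 comparisons 0.482). Over all tested probes, 0.984% lay wholly higher at 6000 ppm and 0.59% wholly lower. The number of calls was 25 to 29 without folpet 6000 ppm replicate 2, 3 or 5 or folpet 16000 ppm replicate 1, 3 or 5. With library totals alone it was 9, and of the called genes described here Fkbp5, Glul and Hspa1b kept their calls.

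Hspa1b, an inducible chaperone near-identical to Hspa1a and so uncertain as a single gene, had the largest called difference. Its lowest, median and highest libraries had 25.9, 39.7 and 120.2 CPM at 6000 ppm, against 469, 971 and 1384 CPM at 16000 ppm. The groups did not overlap, at -4.20 ± 0.75 log2 (edgeR adjusted p = 0.0013). Osgin1, an NRF2-responsive growth inhibitor, had 142, 217 and 388 CPM at 6000 ppm and 387, 622 and 768 CPM at 16000 ppm, with ranges that just overlapped, at -1.46 ± 0.24 log2 (edgeR adjusted p = 0.000206). Sqle, squalene epoxidase of sterol synthesis, Spcs2, a signal peptidase subunit, and Tcp1, a chaperonin subunit, were lower at 6000 ppm, at -1.32, -1.11 and -0.81 log2. Spcs2 did not pass without folpet 6000 ppm replicate 2, 4 or 6 or folpet 16000 ppm replicate 5, with adjusted p up to 0.116 in edgeR, and its other probe did not pass at -0.11 log2.

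At the lower dose 4 of 27 other NRF2 genes were lower, Osgin1, Sod1, Prdx1 and Aldh3a2, none was higher, and the median was -0.56 log2. Over all tested probes 0.59% were called lower at 6000 ppm. None of the 19 glutathione genes passed, with a median of -0.51 log2. The lowest, median and highest libraries of Sod1, the cytosolic superoxide dismutase, had 959, 1111 and 1261 CPM at 6000 ppm and 1293, 1997 and 2395 CPM at 16000 ppm, without overlap, at -0.71 ± 0.15 log2 (edgeR adjusted p = 0.00635); Sod1 was named after its values were seen. The other probe of Aldh3a2 did not pass, at 0.29 log2. Prdx1 did not pass without folpet 6000 ppm replicate 2, 3, 4, 5 or 7 or folpet 16000 ppm replicate 1, 3 or 5, with adjusted p up to 0.0693 in edgeR. Gsta1, Ugdh and Nqo1 did not pass, at -0.81 ± 0.32, -0.62 ± 0.26 and -1.14 ± 0.37 log2 (edgeR adjusted p = 0.254, 0.283 and 0.136), with 95% intervals from -1.44 to -0.18, from -1.13 to -0.12 and from -1.87 to -0.42 log2.

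Fkbp5 was the largest called rise at the lower dose. Its lowest, median and highest libraries had 3669, 4890.0 and 5832 CPM at 6000 ppm, against 772, 1244 and 1903 CPM at 16000 ppm. The doses did not overlap, at 1.84 ± 0.35 log2 (edgeR adjusted p = 0.00211). Tsc22d3 was higher at 6000 ppm by 0.61 ± 0.16 log2 (edgeR adjusted p = 0.035), in 11 of 23 alternatives; it did not pass without folpet 6000 ppm replicate 1, 2, 5, 6 or 7 or folpet 16000 ppm replicate 1, 3, 4, 5 or 6, with adjusted p up to 0.088 in edgeR. Glul, glutamine synthetase, had 94.0, 299.9 and 698 CPM at 6000 ppm and 72.6, 112 and 148 CPM at 16000 ppm, with overlap, at 1.74 ± 0.42 log2 (edgeR adjusted p = 0.0189), and did not pass without folpet 6000 ppm replicate 2 or 5 or folpet 16000 ppm replicate 1, with adjusted p up to 0.0606 in edgeR. Unlike Fkbp5 and Tsc22d3, Glul at 6000 ppm did not pass against control, at -0.13 ± 0.44 log2 (edgeR adjusted p = 0.915). The sign of that value was not stable. Control libraries had a median of 197 CPM and a highest value of 1234 CPM. Without 1 library the log2 fold change ran from -0.38 to 0.91, and Glul passed in 0 of 21 alternatives.

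At 6000 ppm 3 of 7 class II and antigen presentation genes were higher, beside 1.14% of all tested probes, with a list median of 1.02 log2. Of these, H2-Aa had 128, 176 and 464 CPM at 6000 ppm and 32.1, 74.1 and 101 CPM at 16000 ppm, without overlap, at 1.68 ± 0.39 log2 (edgeR adjusted p = 0.0151), and did not pass without folpet 6000 ppm replicate 5 (edgeR adjusted p = 0.0586). Cd74 and the class I gene H2-K1 were higher by 1.02 and 0.68 log2. Their calls rested on small margins: Cd74 lost its call without folpet 6000 ppm replicate 2, 3, 5 or 7 or folpet 16000 ppm replicate 1, 3, 5, 6 or 7, and H2-K1 without any 1 of the 7 folpet 6000 ppm libraries or folpet 16000 ppm replicate 1, 2, 3, 4 or 5, with adjusted p up to 0.131 and 0.126 in edgeR.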

How the data were processed

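Counts per probe were deposited by the authors as 1 whole-number table, raw and not normalized per the table's values, with 0 columns that match no sample. Per the submitters' processing notes, bcl2fastq 2.17.1.14, Bowtie and the mm9 build were used; the sources used here name no counting tool. Of all values 28.5% were 0 and 1.01% of the others lay from 1 to 5, so low counts may have been removed before deposit.

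Libraries were grouped by their treatment labels. Probes were fitted with edgeR 4.0.16 (R 4.3.3; TMM, filterByExpr with a minimum count of 10 and total of 15, robust quasi-likelihood) over all 40 libraries with 1 mean for each of 6 groups and 34 residual degrees of freedom, and p-values were adjusted by Benjamini-Hochberg over all probes kept. Standard errors are the log2 fold change divided by the root of F, and 95% intervals span 1.96 of them to each side. CPM used TMM-scaled library sizes, with a prior count of 2 on the log2 scale in the search for outlying libraries. Shares and totals were compared by exact permutation (SciPy 1.17.1). Alternatives used DESeq2 1.42.0, limma 3.58.1, other scalings, filters, thresholds and sets of libraries. The fit was also run on counts simulated with its own estimates of spread and with known fold changes. No acinar difference between groups and no removal of low counts was simulated, so that check does not speak to either. The depth per library, 1763440 to 7904819 counts over the series, limits precision for probes of few counts, and PCR reads without molecular identifiers are not independent molecules.

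The genes named are, of called probes against control, the 10 largest rises and falls, the 5 smallest p-values in each direction and up to 4 called members of each of 28 lists by smallest p, with defining genes such as Nqo1 and Fos whether called or not; for the comparison with captan every called probe, and for that with folpet 16000 ppm the 5 largest rises and falls. For a gene with 2 probes the one with more counts was named. A gene that the rule names is not reported here. The members and lists were chosen with earlier results of these data known. Promoters were matched to genes by symbol from RefSeq tables of GRCm38.p6, and no coordinate of the authors' build was used. Of 2756 symbols 2601 matched RefSeq by symbol, 98 by a synonym and 57 not at all.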

Additional observations from a re-analysis of the deposited data

Results flagged for a closer look

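Among 146 groups of values, 8 held 1 library far below the others of its group, where chance gives about 1 in 20. In the folpet 6000 ppm libraries, replicate 5 had 2013 probes above 0, and on the log2 CPM scale replicate 4 had -1.26 for Cyp2a5 (a count of 0), replicate 1 had 5.75 for Capg and replicate 5 had 2.85 for E2f2. In the control libraries, replicate 2 had -1.26 for Capg (a count of 0) and 3.38 for Clip3, and replicate 5 had -1.26 for Bnip3 (a count of 0) and 7.79 for Fmo5. Control replicate 5 was also the shallowest library of its group and had the highest acinar share, 77.6%, and the part of either in these values was not tested.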

How the results depend on the processing

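Against control, 158 probes were called; library totals alone gave 51, a fit of only the 2 groups 77, the acinar share as a covariate 100, the libraries up to 50% acinar counts 104, and leaving out 1 library 122 to 174. DESeq2 called 134 higher and 91 lower. Of the 71 called named genes, 30, 43, 45 and 46 passed under those 4 settings and 51 to 65 without 1 library; of the 67 called probes in the lists, 34 passed with totals alone, 43 in the 2-group fit and 55 to 70 without 1 library. Against captan 6000 ppm, 4 probes were called, and an adjusted p under 0.1 gave 10, totals alone 1, DESeq2 13, limma-voom 13, the 2-group fit 10, the libraries up to 50% acinar 10, and leaving out 1 library 3 to 6. Against folpet 16000 ppm, 44 were called, and these settings gave 69 at 0.1, 9 with totals alone, 86 in DESeq2, 113 in the 2-group fit, 70 up to 50% acinar and 25 to 47 without 1 library. The cause of these shifts was not tested, except that a looser threshold calls more. Totals alone put the median of all probes at 0.28 log2 against control, -0.05 against captan and 0.31 against folpet 16000 ppm, where the values with TMM were -0.0004, -0.01 and 0.03. Without 1 library the difference in acinar share ran from -36.3 to -22.2 percentage points against control, from -2.12 to 4.29 against captan and from -10.1 to -3.61 against folpet 16000 ppm, that in total counts from 190920 to 1215700 and that in probes above 0 from 77.1 to 293. For the single genes named under the rule, 2404 alternative values kept their side of the threshold, 510 lost the call and 14 gained it; no called gene changed sign, while 24 values of 7 named genes that were not called did. No paired analysis was possible because the labels give no replicate numbers shared between groups. Depth limits probes of few counts, and a count of 0 sets no bound where low counts may have been removed.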

Other observations

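Further called genes belonged to no list, and those given here were chosen after their values were seen. Pgrmc1, a haem-binding membrane protein that supports P450 enzymes, ran from 1096 to 2018 CPM with a median of 1369.8 CPM in the folpet libraries, against 630.0, 453, 509, 599 and 383 CPM in the control libraries. The groups did not overlap, at 1.49 ± 0.21 log2 (edgeR adjusted p = 2.53e-06). Slc6a8, the creatine transporter, ran from 4354 to 7147 CPM with a median of 5064 CPM in the folpet libraries, against 2216, 4049, 3501, 2234 and 1091 CPM in the control libraries, at 1.14 ± 0.20 log2 (edgeR adjusted p = 0.000106). Ephx2, the soluble epoxide hydrolase, and Aldh2, the mitochondrial aldehyde dehydrogenase, rose by 0.90 ± 0.19 and 0.93 ± 0.18 log2 (edgeR adjusted p = 0.000877 and 0.000533). Sqor, which oxidises hydrogen sulfide, and Slc47a1, an exporter of organic cations, rose by 1.12 ± 0.20 and 1.60 ± 0.29 log2 (edgeR adjusted p = 0.000193 and 0.000193).

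Plau, the urokinase that activates plasminogen, ran from 30.4 to 111 CPM with a median of 41.3 CPM in the folpet libraries, against 84.6, 106, 90.8, 128 and 249 CPM in the control libraries. It fell by 1.33 log2 with a standard error of 0.30 (edgeR adjusted p = 0.00285), a call lost without the controls above 50% acinar counts and in the fit of only the 2 groups. Ccnd2, a D-type cyclin, ran from 107 to 175 CPM with a median of 140.1 CPM in the folpet libraries, against 209, 205, 266, 253 and 409 CPM in the control libraries. It fell by 0.95 log2 (edgeR adjusted p = 0.00474); its other probe did not pass at -0.93 log2, and its call was lost with the acinar share as a covariate and without the controls above 50% acinar counts.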
